A study of Homo sapiens with 6 samples.

Results

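JARID2 and BICRA are genes of chromatin regulators. They were examined through the regions that the authors listed as differentially methylated after DNMT3A was overexpressed in HepG2, a human liver cancer cell line. Members were all listed regions overlapping chromosome 6: 15245000-15523500 for JARID2 or chromosome 19: 47607000-47704500 for BICRA, on hg38. These were 6 of the 4344 listed regions, 3 per gene, and they form 2 of the 3313 distinct regions left after overlapping ones were merged. Both genes were selected on the size of the methylation gain at their regions over the 3 pairs of libraries, so all levels and differences below are given as a description, with no test.

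HepG2 cells carrying a DNMT3A-overexpressing lentivirus (3 libraries) were set against HepG2 cells carrying a control lentivirus (3 libraries, genotype labelled WT). Methylation was read by reduced representation bisulfite sequencing (RRBS), in which MspI cuts DNA at CCGG and bisulfite converts unmethylated cytosines. Each deposited list sets 1 overexpressing library against the equally numbered control, here called a pair. The labels name neither the promoter that drives DNMT3A nor whether the infected cells were a pool or 1 clone, and do not state whether replicate libraries were grown as separate cultures, so the SDs may hold technical spread only. Mapped reads per library ran from 25764323 to 29924507. The lists give no reads per region, so the depth behind each level is unknown, and they hold no expression values against which the HepG2 label could be checked.

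DNMT3A is a de novo DNA methyltransferase, which places methyl groups on CpG sites that carry none. JARID2 binds Polycomb repressive complex 2 (PRC2), the complex that methylates histone H3 at lysine 27, and helps to bring it to chromatin. It belongs by sequence to the Jumonji (JmjC) family of histone demethylases but lacks that activity. BICRA, also known as GLTSCR1, is a defining subunit of the noncanonical form of the SWI/SNF nucleosome remodelling complex, which also holds BRD9.

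Neither gene had a listed region at its annotated starts. The RefSeq promoter table of GRCh38.p14, the same build, holds 2 starts of each gene. No listed region of any pair overlapped these windows, and 0.675% of the 35116 promoter windows of the table held one. An unlisted window shows only that no change was called there. The 250 bases before the first start of each gene are shown because they hold many CpG sites and an MspI site, written in capitals (CCGG, which reads the same on both strands). The JARID2 stretch is chromosome 6: 15245819-15246068, plus strand, with 22 CpG sites, and the BICRA stretch is chromosome 19: 47607946-47608195, plus strand, with 19.
JARID2 first start: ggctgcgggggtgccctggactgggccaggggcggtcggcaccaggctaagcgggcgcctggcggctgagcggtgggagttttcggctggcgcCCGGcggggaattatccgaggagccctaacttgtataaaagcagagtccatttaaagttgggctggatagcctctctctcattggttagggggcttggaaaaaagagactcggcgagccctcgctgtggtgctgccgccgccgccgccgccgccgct
BICRA first start: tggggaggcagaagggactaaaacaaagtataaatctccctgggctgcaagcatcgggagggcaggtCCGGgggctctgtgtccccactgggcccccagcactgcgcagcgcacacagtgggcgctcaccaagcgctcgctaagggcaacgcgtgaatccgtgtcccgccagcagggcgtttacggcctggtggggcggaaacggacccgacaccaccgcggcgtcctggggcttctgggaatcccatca
The windows before the second starts were richer, with 34 CpG sites and 3 MspI sites in JARID2 and 30 CpG sites and 7 MspI sites in BICRA. Across all promoter windows, 58.5% held at least 1 CCGG and 27.3% held at least 3.

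The listed regions lay deep inside both genes. The JARID2 region was chromosome 6: 15505114-15505255, with 20 CpG sites in 142 bp, 259 kb downstream of the first start and 16.8 kb before the end of a gene of 275974 bp. The BICRA region was chromosome 19: 47663111-47663245, with 14 CpG sites in 135 bp, 54.9 kb downstream of the first start and 40032 bp before the end of a gene of 95082 bp. These positions are 93.9% and 57.8% of the way along the genes. The table used gives no exons, so exon or intron was not analysed here.

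**Figure D1:**
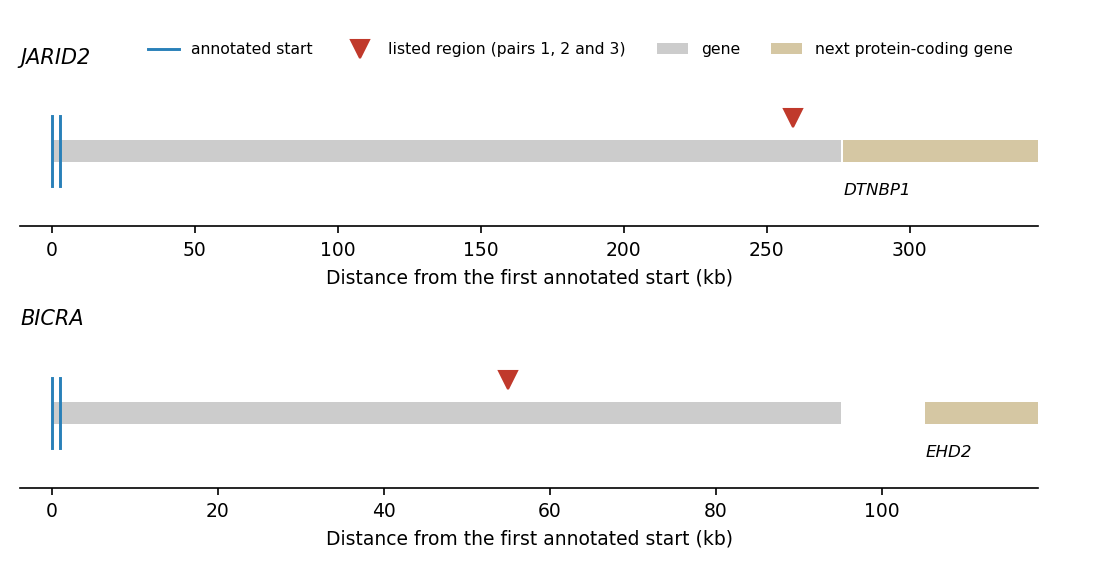
Position of the listed regions in JARID2 (top) and BICRA (bottom). The horizontal axis is the distance from the first annotated start in kb, grey bars are the genes, blue lines the 2 annotated starts, red triangles the region listed in pairs 1, 2 and 3, and tan bars the next protein-coding gene. The JARID2 region sits 259 kb and the BICRA region 54.9 kb downstream of the first start.

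All 3 pairs listed each region with identical boundaries and the same number of CpG sites. Of the 272 regions listed in all 3 pairs, 51 had identical boundaries in each. All 6 rows were higher in the overexpressing library, where 82.1%, 81.7% and 81.1% of all regions listed in pairs 1, 2 and 3 were higher. Of all distinct regions, 7.97% were listed in every pair and higher in each. Since direction and recurrence helped to choose both genes, nothing is read from these counts.

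The JARID2 region was mostly unmethylated in control cells and mostly methylated in overexpressing cells. Its methylation level (a fraction from 0 to 1) was 0.653, 0.616 and 0.575 in overexpressing libraries 1, 2 and 3, against 0.151, 0.107 and 0.188 in control libraries 1, 2 and 3. The groups did not overlap: the lowest overexpressing library, number 3, lay 0.387 above the highest control library, also number 3. The level averaged 0.615 ± 0.0386 in overexpressing libraries and 0.149 ± 0.0406 in control libraries (SD, n = 3 each). The difference, overexpressing minus control, averaged 0.466 ± 0.0681 (SD, n = 3 pairs), which is 4.13-fold as a ratio of the mean levels. It was similar in pairs 1 and 2, at 0.501 and 0.509, and smaller in pair 3, at 0.387, where the overexpressing level was the lowest and the control level the highest of their groups.

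The BICRA region was part-methylated in control cells and also ended mostly methylated. Its level was 0.617, 0.694 and 0.718 in overexpressing libraries 1, 2 and 3, against 0.209, 0.235 and 0.281 in control libraries 1, 2 and 3. Every overexpressing library was above every control library, by at least 0.336. The level averaged 0.676 ± 0.0527 in overexpressing libraries and 0.242 ± 0.0363 in control libraries (SD, n = 3 each), a ratio of 2.80. The difference was 0.408, 0.459 and 0.437 in pairs 1, 2 and 3 and averaged 0.435 ± 0.0258 (SD, n = 3 pairs). Pair 1 had the lowest level of both groups, and the differences varied less between pairs than the levels of either group.

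**Figure D2:**
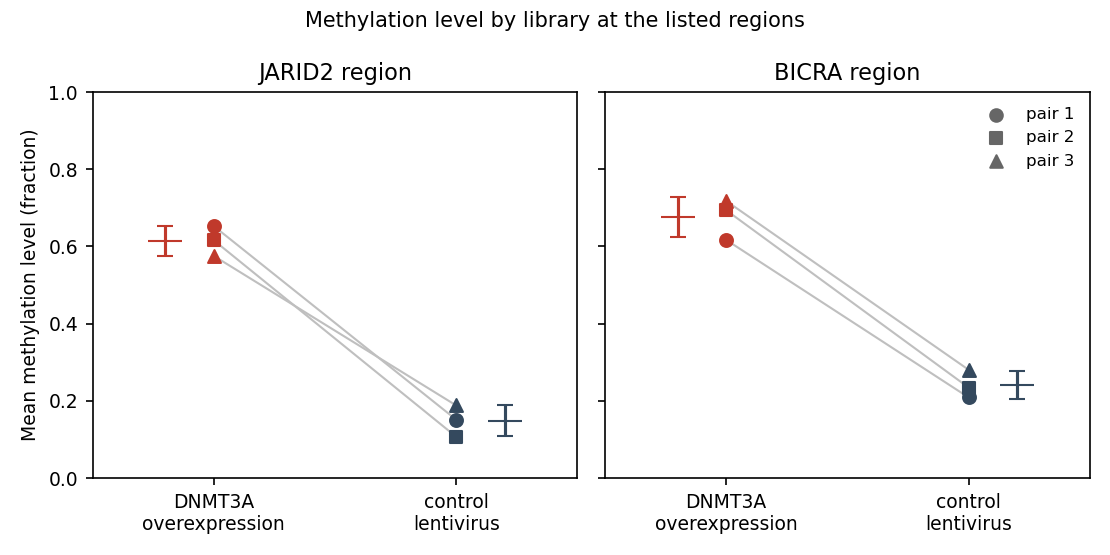
Mean methylation level (fraction, vertical axis) at the JARID2 region (left) and the BICRA region (right) in the 3 DNMT3A-overexpressing libraries (red) and the 3 control libraries (dark blue). Symbols mark pairs 1 to 3, grey lines join the libraries of a pair, and bars beside the points give mean and SD (n = 3). At both regions all red points lie above all blue ones.

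Groups that do not overlap are common among recurrent regions: in 95.6% of the 272 regions listed in all 3 pairs every overexpressing library was above every control. The pairs ranked differently at the genes. JARID2 had its smallest difference in pair 3, whose overexpressing library had the fewest mapped reads (25764323). BICRA had its smallest in pair 1, whose libraries had the most (29924507 overexpressing, 29269281 control). The part of depth in either was not tested.

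JARID2 and BICRA differed more in where they started than in how much they gained. The control level of JARID2 minus that of BICRA was -0.0577, -0.128 and -0.0925 in control libraries 1, 2 and 3, so JARID2 was the lower in all 3. The overexpressing level of JARID2 was above that of BICRA in library 1 and below it in libraries 2 and 3. The gain of JARID2 minus that of BICRA was 0.0934, 0.0495 and -0.0500 in pairs 1, 2 and 3, averaging 0.0310 ± 0.0735 (SD, n = 3), so the order of the gains lay within the spread between pairs. As a share of the level that was unmethylated in the control, the gain was 54.6% ± 6.05 in JARID2 and 57.5% ± 5.11 in BICRA (SD, n = 3 pairs).

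Set among the 264 regions higher in every pair, the JARID2 region had the largest mean difference and the BICRA region the 7th largest, against a median of 0.280 and an interquartile range of 0.227 to 0.327. These ranks are what the genes were picked for. Their control levels were less unusual. The JARID2 control level exceeded that of 50.8% of the shared gains and the BICRA control level that of 73.1%, the median being 0.148. Their overexpressing levels ranked 52nd and 29th of the 264. By the ratio of mean levels JARID2 ranked 64th and BICRA 145th. By the share of the unmethylated control level that was gained they ranked 24th and 16th. Of these measures, the difference placed both regions highest.

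Within a single list other regions had larger differences. By difference, the JARID2 region ranked 58th of 1217 higher regions in pair 1, 43rd of 1171 in pair 2 and 178th of 1158 in pair 3. The BICRA region ranked 161st, 76th and 115th in the same lists. The regions ranked above JARID2 in a list were therefore not shared gains or averaged less over the pairs. By the authors' area statistic, whose definition is not given in the sources used here, JARID2 ranked 46th, 27th and 79th and BICRA 250th, 221st and 234th.

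The spread between pairs was unlike at the genes. The SD of the pair differences at JARID2 exceeded that of 87.1% of the shared gains, and that at BICRA exceeded 37.9% of them, the median SD being 0.0322. CpG density, which the choice of genes did not use, was 14.1 CpG sites per 100 bp in the JARID2 region and 10.4 in the BICRA region. The median of the shared gains was 10.4 (interquartile range 8.24 to 13.5), so JARID2 lay above that range and BICRA at its middle. With 20 CpG sites JARID2 had more than 64.8% of the shared gains and with 14 BICRA had more than 37.5%.

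**Figure D3:**
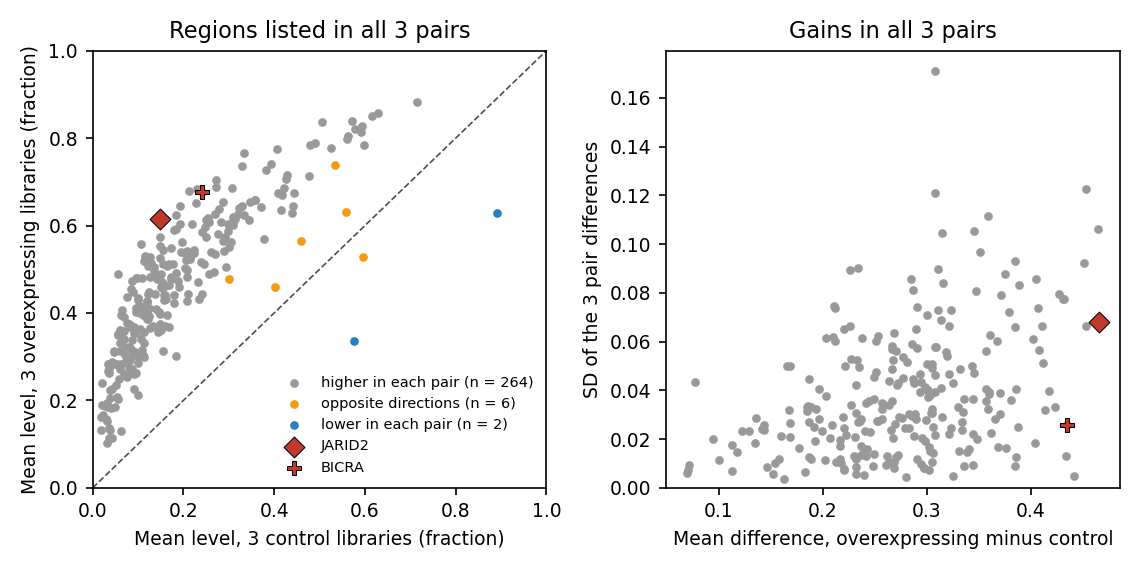
Left: mean level in the 3 overexpressing libraries (vertical axis) against mean level in the 3 control libraries (horizontal axis), as fractions, for the 272 regions listed in all 3 pairs, coloured by direction, with a dashed line of equal levels. Right: SD of the 3 pair differences against their mean (overexpressing minus control) for the 264 gains. JARID2 (diamond, 0.466) is farthest right, and BICRA (plus sign, 0.435) lies lower on the SD axis.

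Each gene held a single listed region, and this was not unusual. Of 182 protein-coding genes with a gain shared by all pairs inside them or within 1 kb, 52.7% had 1 distinct listed region, while the most had 22. Of the 20 such genes at least as long as JARID2, 7 had 1 region and the median was 2. Of the 77 at least as long as BICRA, 33 had 1 region, and the median was again 2. The noncoding genes JARID2-DT, JARID2-AS1 and BICRA-AS2, which lie at the starts of both genes, held no listed region, nor did DTNBP1, the gene that follows JARID2.

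JARID2 stood far from any other listed region. The nearest beyond the gene was in ATXN1, a gene known for spinocerebellar ataxia, at chromosome 6: 16726592-16726782, 1.22 Mb away. There the level was 0.384, 0.391 and 0.424 in overexpressing libraries 1, 2 and 3, against 0.0647, 0.111 and 0.136 in control libraries 1, 2 and 3. On the other side GFOD1 was listed in pair 3 only, 2.02 Mb away, at 0.441 in the overexpressing library and 0.0438 in the control library. The distance from JARID2 to its nearest listed neighbour exceeded that of 96.2% of the shared gains, whose median was 31.0 kb.

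BICRA had a closer neighbour. In EHD2, a gene of membrane trafficking 67.0 kb away, pair 3 listed chromosome 19: 47730233-47730330, at 0.139 in the overexpressing library and 0.0371 in the control library. On the other side, 1.03 Mb away, pair 1 listed a region lower in the overexpressing library, at 0.177 against 0.486 in the control library (chromosome 19: 46628058-46628169, nearest to PTGIR). Both neighbours were listed in 1 pair, so the BICRA gain had no recurrent listed region beside it, and 62.5% of shared gains had a nearer neighbour than BICRA.

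Recurrent regions with the most similar levels were found by the root mean square difference over the 6 libraries, among the 271 other regions listed in all 3 pairs. For JARID2 the 5 nearest included regions in ECE1 (0.0418), TNS3, a tensin gene (0.0448), DPF3 (0.0458) and TRA2A, a splicing factor gene (0.0598). The median over all 271 was 0.164. BICRA was 41st in likeness to JARID2, at 0.0965. The ECE1 region had more even levels than JARID2, with an SD of 0.00691 between overexpressing libraries and 0.00688 between control libraries. It also held more CpG sites, with a median of 38 over its listed rows against 20 at JARID2.

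For BICRA the nearest were 2 regions with no gene within 1 kb, at chromosome 2: 43187020-43187147 (0.0374; 35.3 kb from ZFP36L2) and chromosome 1: 211887429-211887562 (0.0510; 52.8 kb from INTS7). P2RX4, an ATP-gated channel gene (0.0545), CACNA1H (0.0551) and TNFAIP8 (0.0592) followed. In CACNA1H, which encodes a T-type calcium channel, the region averaged 0.638 ± 0.0198 in overexpressing libraries and 0.279 ± 0.0166 in control libraries (SD, n = 3 each).

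DPF3, which was among the 5 regions most like JARID2, is itself a subunit gene of SWI/SNF. Its region at chromosome 14: 72783845-72783949 had 8 CpG sites and identical boundaries in all pairs. The level was 0.588, 0.622 and 0.566 in overexpressing libraries 1, 2 and 3, against 0.139, 0.190 and 0.223 in control libraries 1, 2 and 3. The groups did not overlap, as in 95.6% of the 272 regions listed in all 3 pairs. The smallest difference, 0.343, was again in pair 3. With a mean difference of 0.408 ± 0.0565 (SD, n = 3 pairs) it ranked 17th among the 264 shared gains.

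The partners of JARID2 in PRC2 were looked up in the same lists. Leaving out JARID2, which was chosen for its gain, 1 of 13 PRC2 genes (7.69%) had one inside the gene or within 1 kb, where 8.88% of 19974 protein-coding genes had any listed region. It was EZH2, the methyltransferase subunit, listed in pair 3 only at 0.772 in the overexpressing library and 0.429 in the control library. JARID2 was the 1 PRC2 gene higher in at least 2 pairs. Without it 0 of 13 met that condition, as did 2.43% of protein-coding genes. No region was called in the core subunit genes EED and SUZ12, or in AEBP2, which shares its PRC2 subtype with JARID2.

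Of 31 SWI/SNF genes, 5 had a listed region, 4 with a higher and 1 with a lower one, or 3 and 1 of 30 without BICRA. Among all protein-coding genes, 7.13% had a higher one and 2.39% a lower one. Leaving out BICRA, which was chosen for its gain, 4 of 30 (13.3%) had a listed region and 2 of 30 (6.67%) were higher in at least 2 pairs, where 8.88% and 2.43% of all protein-coding genes met these conditions. With counts this small, nothing particular to the list is read from them. BICRA, DPF3 and BCL11B were higher in at least 2 pairs, and none was lower in 2, a condition met by 0.27% of protein-coding genes. BRD9, the bromodomain partner of BICRA, was listed in pair 1 only, at 0.191 in the overexpressing library and 0.0584 in the control library. DPF2 was lower in pair 2, at 0.0197 in the overexpressing library and 0.0872 in the control library. No region was called in BICRAL, the paralog of BICRA, in the ATPase genes SMARCA4 and SMARCA2, or in ARID1A. In BCL11B, a zinc finger gene whose product binds SWI/SNF, 3 regions were shared by all pairs, with mean differences of 0.311, 0.210 and 0.305.

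Among the JmjC family, 30 of 32 genes lay on chromosomes with listed regions, and 4 had one, or 3 of 29 (10.3%) without JARID2, against 8.88% of all protein-coding genes. JARID2 and KDM4B, a histone H3 lysine 9 demethylase gene, were higher in at least 2 pairs. Without JARID2, which was chosen for its gain, this was 1 of 29 (3.45%), against 2.43% of all protein-coding genes. KDM2B was higher in pair 3, at 0.766 in the overexpressing library and 0.484 in the control library, and HR was lower in pair 2, at 0.314 in the overexpressing library and 0.536 in the control library. Of 25 PRC1 genes, 5 (20%) had a listed region, against the same 8.88% of all, and BCOR alone of these was listed in more than 1 pair. Genes higher in at least 2 pairs were long, with a median of 66.5 kb against 24.2 kb for all protein-coding genes, and the part of gene length in the list counts was not tested.

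**Figure D4:**
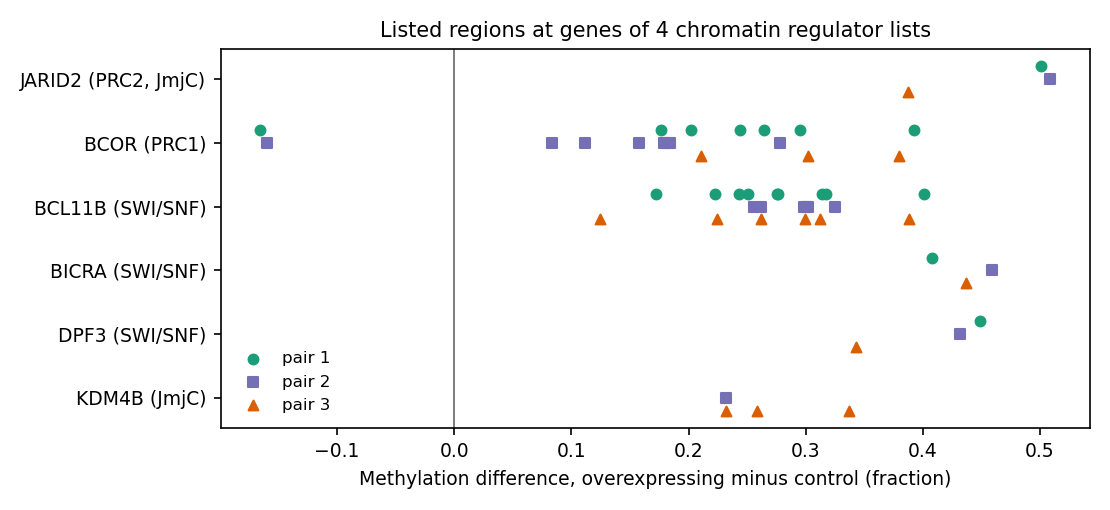
Methylation difference (overexpressing minus control, fraction, horizontal axis) of the listed regions at those genes of 4 lists of chromatin regulators that had listed regions in at least 2 pairs (rows; list names in brackets). Symbols and colours mark pairs 1 to 3. JARID2, BICRA and DPF3 each show 1 region in all pairs, while BCOR and BCL11B show many.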

How the data were processed

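The authors deposited, per the file headers, 1 list of differentially methylated regions for each of 3 pairs of libraries, and a mapping summary. Each region has a mean methylation level per library as a fraction, a count of CpG sites, a length and an area score of the authors. The deposited difference equalled the overexpressing minus the control level within 1e-12. Read counts and percent mapping rates of the 6 libraries were deposited too. Coordinates are on hg38, per the submitters' processing notes. For the aligner, the region caller and its thresholds, the name and version were not given in the sources used here. Listed regions were called, so their differences tend to exceed those of a fresh measurement.

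Regions overlapping by at least 1 bp were merged across pairs, and a pair with several rows took their mean weighted by CpG sites. The merging was tested on simulated data. Genes came from RefSeq (GRCh38.p14), with 1 kb flanks, and promoters from the 250 bases before each start. The 102 entries of the 4 gene lists were matched by symbol. Genes and lists were chosen with earlier results of these data known, and no test was run for that reason. Named beside JARID2 and BICRA are the 5 regions nearest to each by level, list genes recurring in a direction, and the nearest listed neighbours. Some results under this rule are not reported here. EZH2, BRD9, DPF2, KDM2B, HR and genes without a listed region were named after their values were seen. Python 3.11.15, pandas 2.3.3 and matplotlib 3.10.9 were used. Alternatives were row weighting, overlap, scale, stricter calls, other windows and leaving out each pair. No column of other samples was present.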

Additional observations from a re-analysis of the deposited data

How the results depend on the processing

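Of the 26 alternatives for JARID2 and BICRA, those of row weighting, overlap, stricter calls and windows left the values as they were. Each pair has 1 row per gene with identical boundaries, well past the stricter calls, so these alternatives are no sign of stability. Leaving out 1 pair at a time gave mean differences of 0.444 to 0.505 at JARID2 (the highest without pair 3) and 0.423 to 0.448 at BICRA. The listed rows of each gene then fell from 3 to 2, since each pair holds 1 row of the same region. On the logit scale, back-transformed, the mean differences over all pairs were 0.469 at JARID2 and 0.437 at BICRA. Of all 98 alternatives, 9 moved a list's count to 0 or by more than a fixed ratio, through fewer samples, calls or wider windows. Smaller changes of a count are not among the 9. For example, 7 PRC1 genes had a listed region with 5 kb flanks, against 5. With 5 kb flanks 2 PRC1 genes were higher in at least 2 pairs, against 1. With differences of at least 0.2 only, 3 SWI/SNF genes had a listed region, against 5, and 0 PRC1 genes were lower in at least 2 pairs, against 1 (BCOR). Leaving out 1 pair gave 0 to 1 for that last count. It gave 1 to 2 JmjC genes higher in at least 2 pairs, 1 to 2 PRC2 genes with a listed region (1 without pair 3) and 3 to 4 PRC1 genes with one (3 without pair 3). No paired analysis was possible because no model was fitted in which a replicate block could be set, and the differences above are already those within pairs. No coverage minimum could be set, since no reads per region are given.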

Other observations

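BCOR, a corepressor gene of a PRC1 variant on chromosome X, held 18 listed rows, 16 of them higher in the overexpressing library. Of all regions listed in pairs 1, 2 and 3, 82.1%, 81.7% and 81.1% were higher, so nothing particular to BCOR is read from this count. The region at chromosome X: 40169919-40170022 stood at 0.301, 0.339 and 0.440 in overexpressing libraries 1, 2 and 3, against 0.0574, 0.0614 and 0.0601 in control libraries 1, 2 and 3. Its control libraries hardly differed, with an SD of 0.00201. A second position within BCOR was lower, at 0.496 and 0.451 in overexpressing libraries 1 and 2, against 0.661 and 0.611 in control libraries 1 and 2. Gains and losses were thus listed in the same gene.

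KDM4B had a region listed in pairs 2 and 3 near chromosome 19: 5048215-5048397. It stood at 0.609 and 0.575 in overexpressing libraries 2 and 3, against 0.377 and 0.343 in control libraries 2 and 3. Further rows of KDM4B were listed in pair 3 only.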
